A study of Homo sapiens with 9 samples.

Results

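MHC class I molecules carry short peptides from inside the cell to its surface, where CD8 T cells and natural killer cells read them. A heavy chain, such as HLA-B, HLA-C or HLA-E, pairs with the invariant chain beta-2-microglobulin, encoded by B2M. Peptides cut by the proteasome are pumped into the endoplasmic reticulum by the TAP1 and TAP2 transporter, loaded with the help of tapasin (TAPBP) and shortened by the aminopeptidase ERAP1, and NLRC5 is the transactivator that switches on many of these genes. Tumour cells, hepatocellular carcinoma cells among them, are known to lower parts of this pathway.

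The 9 genes described here are HLA-B, HLA-C, HLA-E, B2M, TAP1, TAP2, TAPBP, ERAP1 and NLRC5, found by symbol among the 32906 genes listed for each library. They were followed in cells labelled Huh7, a human hepatocellular carcinoma line, 48 h after transfection. The groups were Scramble, a control siRNA, and Si-KDM4C#1 and Si-KDM4C#2, siRNAs against the histone demethylase KDM4C, with 3 RNA-seq libraries in each group. All 9 libraries came from the same line and none had a second agent, and whether the libraries of a group came from separate cultures is not given in the labels, so the p-values measure only the spread between these libraries. Values are FPKM, which scale the fragments of a gene by its exon length and by the fragments of the library, as deposited. Fold changes were fitted with limma-trend on log2(FPKM + 1) over 14363 genes, all 9 members included, and adjusted p-values are Benjamini-Hochberg values over all of them. A gene was called at an adjusted p under 0.05.

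Between 14597503 and 18058557 fragments were recovered per library from the deposited values, and each member had 107 to 16493 fragments in each library. KDM4C stood at 4.69 ± 0.167 FPKM in Scramble, 1.14 ± 0.0395 in Si-KDM4C#1 and 0.287 ± 0.0535 in Si-KDM4C#2 (SD, n = 3). KDM4B, a related demethylase named after its values were seen, was at 6.28 ± 0.340 FPKM in Scramble, 5.77 ± 0.633 in Si-KDM4C#1 and 1.17 ± 0.0814 in Si-KDM4C#2 (SD, n = 3), and its part in the results with Si-KDM4C#2 was not tested. Of 12 hepatocyte markers 9 were listed, and 8 of these, AFP, APOA1, SERPINA1 and TF among them, stayed at or below 0.128 FPKM in every library, while CPS1 lay between 196 and 302 FPKM. The defining liver markers were thus at or near 0 in all 3 groups, against the label of the line, and the values below hold for the cells as sequenced. All 6 listed leukocyte markers stayed at or below 0.545 FPKM, and their summed level was 0.337 to 0.515 FPKM in Scramble, 0.362 to 0.633 in Si-KDM4C#1 and 0.201 to 0.353 in Si-KDM4C#2.

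Class I genes are known to be controlled at compact promoters. RefSeq windows of the 250 bases before the gene's start on GRCh38.p14 were found for 7 of the 9 members. The RefSeq starts are not those of GENCODE release 29, from which the gene spans below come, and a window can run past the outermost GENCODE start, by 9 bases for HLA-B, 38 for HLA-C, 30 for B2M, 41 for TAP2 and 155 for ERAP1. The TAP1 and TAPBP windows lie wholly past it, inside the annotated genes, and are not printed. Shown are the bases before both starts for HLA-B and HLA-C, which are close in sequence, for B2M, which fell with both siRNAs, and for TAP2, which rose with both. They are written 5′ to 3′ on the strand of the gene. Capitals mark matches on either strand to the CCAAT box (CCAAT), the TGACG core of cAMP response elements (TGACG), the interferon-stimulated response element (GAAA and GAAA with 2 bases of any kind between them), a shorter form of it (GAANNGAAA) and the κB consensus, and adjoining or overlapping matches run together. The printed stretches lie at chr6:31357189-31357429 for HLA-B, chr6:31272131-31272342 for HLA-C, chr15:44711267-44711486 for B2M and chr6:32838781-32838989 for TAP2, all on the minus strand except B2M.
HLA-B: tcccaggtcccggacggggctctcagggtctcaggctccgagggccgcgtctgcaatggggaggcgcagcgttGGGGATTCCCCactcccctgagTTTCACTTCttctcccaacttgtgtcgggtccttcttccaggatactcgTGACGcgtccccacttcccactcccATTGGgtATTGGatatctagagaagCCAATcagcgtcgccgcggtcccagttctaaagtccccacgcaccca
HLA-C: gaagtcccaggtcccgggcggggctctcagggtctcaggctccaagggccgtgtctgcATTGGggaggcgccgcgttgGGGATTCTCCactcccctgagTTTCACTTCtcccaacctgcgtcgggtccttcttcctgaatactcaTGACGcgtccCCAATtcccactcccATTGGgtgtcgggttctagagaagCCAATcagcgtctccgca
B2M: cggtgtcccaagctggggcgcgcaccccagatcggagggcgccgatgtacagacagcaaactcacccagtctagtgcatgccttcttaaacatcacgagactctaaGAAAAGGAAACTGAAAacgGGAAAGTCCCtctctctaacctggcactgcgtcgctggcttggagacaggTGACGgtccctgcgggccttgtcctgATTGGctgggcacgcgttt
TAP2: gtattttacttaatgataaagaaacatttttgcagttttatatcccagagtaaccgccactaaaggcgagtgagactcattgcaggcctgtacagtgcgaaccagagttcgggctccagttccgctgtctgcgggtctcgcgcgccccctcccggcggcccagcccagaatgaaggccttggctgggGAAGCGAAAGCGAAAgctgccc

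Over the 250-base windows, HLA-B and HLA-C held 226 identical bases in 254 aligned columns, or 89.0% identity, and both ran from a κB match through the shorter interferon form and the TGACG core to CCAAT boxes near the start. HLA-B held 3 CCAAT boxes and HLA-C 4, of which 1 lay before the κB match. B2M had 2 overlapping interferon-stimulated response elements, then a κB match, a TGACG match and a CCAAT match. TAP2 had 1 interferon-stimulated response element overlapping the shorter form, and 1 TGACG match past the printed bases. Of the windows not printed, TAP1 held 2 such elements, 1 κB match and 1 CCAAT match, TAPBP held 2 such elements and 1 κB match, and ERAP1 held 1 CCAAT match and a κB match that reads on both strands. Among 35116 promoter windows of the same length, 32.0% held a CCAAT box, 21.2% a TGACG core, 3.02% the interferon-stimulated response element, 6.56% its shorter form and 9.96% the κB consensus. A match describes letters only, and no binding was measured.

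In Scramble cells the members spanned a wide range of levels per length. HLA-C, a classical heavy chain, had the highest mean at 160.7 ± 10.5 FPKM, followed by B2M at 150.7 ± 8.76, and their libraries overlapped. HLA-B followed at 44.5 ± 2.11 FPKM and HLA-E, the heavy chain that presents leader peptides to natural killer cells, at 40.9 ± 0.578, without overlap. TAPBP stood at 25.2 ± 1.89 FPKM, TAP1 at 8.19 ± 1.01, TAP2 at 4.23 ± 0.492, NLRC5 at 3.26 ± 0.537 and ERAP1 at 2.07 ± 0.136 (SD, n = 3 throughout). In this lower part of the order only TAP2 and NLRC5 overlapped. FPKM divides by the length of all annotated exons of a gene, with overlapping exons merged. Levels of different genes thus also depend on how much of that length the cells use.

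With Si-KDM4C#1, 6 members fell and 2 rose. The losses covered 2 of the 3 heavy chains, B2M, TAPBP, ERAP1 and NLRC5, and the gains were both transporter subunits, TAP1 and TAP2. HLA-E did not pass the test. Over all genes tested, 33.9% were called lower and 31.7% higher in this comparison, and the median log2 fold change was -0.52 over the members against -0.032 over all genes. Past a fold change of 2 on the fitted scale there was 1 member, TAPBP, where 8.87% of all genes were past it, and ERAP1 joined it with a pseudocount of 0.1 or in voom.

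With Si-KDM4C#2, 5 members fell and 3 rose. HLA-B, HLA-C, HLA-E, B2M and NLRC5 were lower, TAP2, TAPBP and ERAP1 were higher, and TAP1 did not pass the test. The background was 25.0% of genes lower and 34.4% higher. The median log2 fold change was -0.14 over the members and 0.057 over all genes. Past a fold change of 2 were 0 members, in limma-trend and in voom, against 4.89% of all genes. B2M, at -0.81, was the member that moved most. The number lower dropped from 5 to 3 without Scramble replicate 1 (HLA-C and NLRC5 lost) or Si-KDM4C#2 replicate 3 (the same pair). Si-KDM4C#1 and Si-KDM4C#2 were each compared with the same 3 Scramble libraries, so these comparisons are not independent of each other.

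Set directly against each other, the siRNAs gave different levels for 6 of the 9 members. TAPBP and ERAP1 were higher with Si-KDM4C#2, and HLA-E, B2M, TAP1 and TAP2 were lower. HLA-B, HLA-C and NLRC5 did not pass. In this comparison 35.9% of all genes were called higher and 26.5% lower, and 6.91% passed a fold change of 2, as 1 member, TAPBP, did. ERAP1, at 0.98, made it 2 without Si-KDM4C#1 replicate 2 or Si-KDM4C#2 replicate 1. The split of all calls depended on scaling, with 57.5% of them higher in these FPKM values and 45.7% higher after median-ratio size factors.

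**Figure D1:**
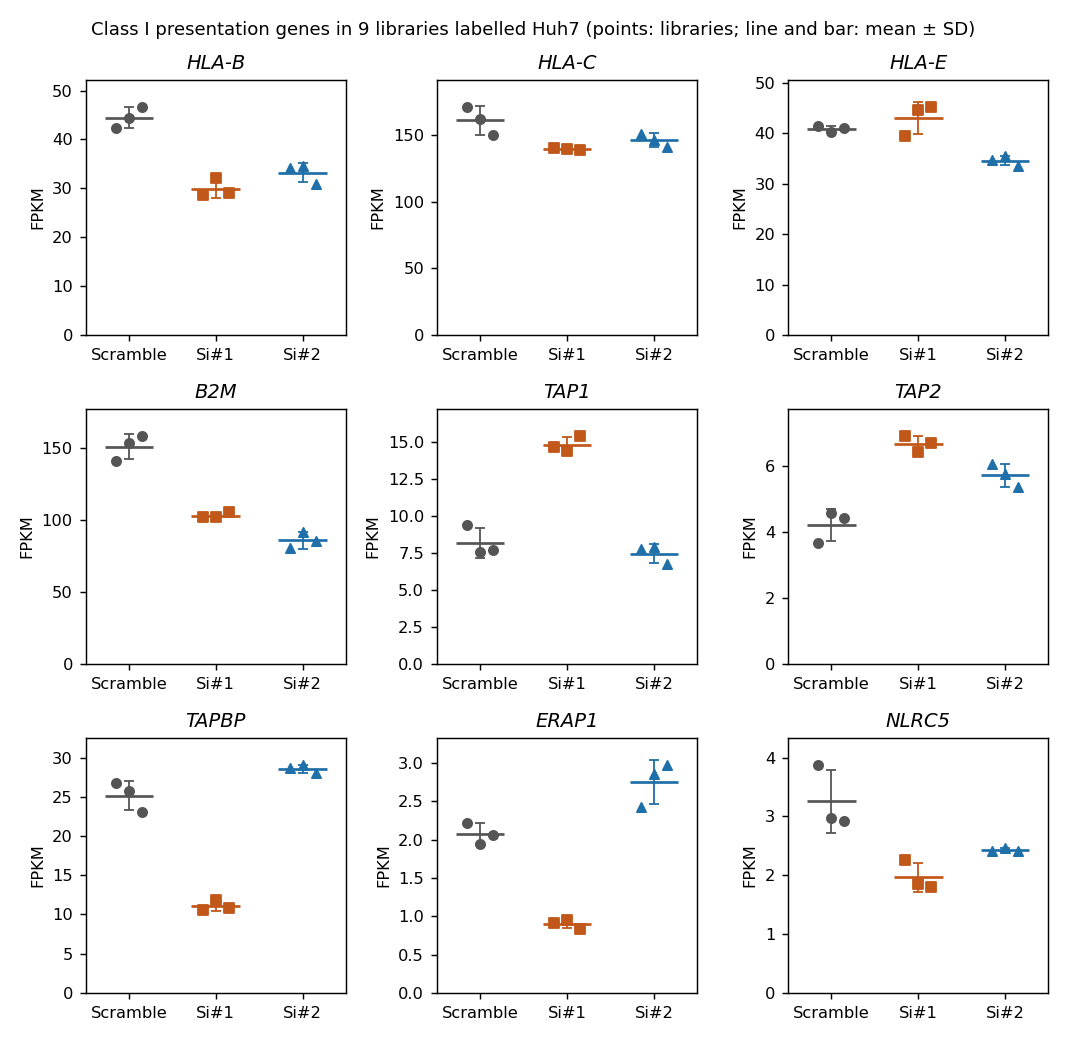
FPKM of each member (vertical axis, from 0) in the Scramble, Si-KDM4C#1 (Si#1) and Si-KDM4C#2 (Si#2) groups, with 1 point per library and the mean ± SD of 3 libraries as line and bar. TAPBP and ERAP1 dropped with Si-KDM4C#1 only, TAP1 rose with Si-KDM4C#1 only, and HLA-B and B2M were lower with both siRNAs.

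HLA-B, at chr6:31269491-31357188 (GRCh38, minus strand, ENSG00000234745), encodes a classical heavy chain that shows peptides to CD8 T cells. Its level was 42.4, 44.4 and 46.6 FPKM in the 3 Scramble libraries, 28.6, 32.2 and 29.1 in Si-KDM4C#1, and 34.1, 34.6 and 30.9 in Si-KDM4C#2. All 6 siRNA libraries were below all Scramble libraries, while the siRNA groups overlapped. HLA-B fell by 0.56 on the log2 scale with Si-KDM4C#1 (SE 0.0601, limma-trend adjusted p = 2.58e-05) and by 0.41 with Si-KDM4C#2 (SE 0.0601, adjusted p = 0.000269). In FPKM the means were 0.674 and 0.747 of Scramble. The siRNAs differed by 0.14 (95% interval 0.0087 to 0.28, limma-trend adjusted p = 0.0616), which passed without Si-KDM4C#1 2 (0.0214) or Si-KDM4C#2 3 (0.0243) and after quantile normalization (0.0261).

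HLA-C, at chr6:31268749-31272130 (minus strand, ENSG00000204525), encodes a heavy chain that is also a ligand of killer-cell receptors. It stood at 170.8, 161.6 and 149.8 FPKM in Scramble, 140.1, 139.7 and 138.5 in Si-KDM4C#1, and 150.9, 146.5 and 140.6 in Si-KDM4C#2. Every Si-KDM4C#1 library was under every Scramble library, and the highest Si-KDM4C#2 library lay above the lowest Scramble one. The fall was 0.20 on the log2 scale with Si-KDM4C#1 (SE 0.0483, limma-trend adjusted p = 0.00456), and with Si-KDM4C#2 HLA-C fell by 0.14 (SE 0.0483, limma-trend adjusted p = 0.0344). That second call was lost in 4 of the fits that left out 1 library (Scramble 1 or 2, Si-KDM4C#2 2 or 3), where the highest adjusted p was 0.118, in the fit on the 6 libraries of the comparison (0.0655) and without the filter on low values (0.0837). The difference between the siRNAs was 0.065 (95% interval -0.044 to 0.17), passed at 0.14 after quantile normalization and changed sign, to -0.069, with median-ratio size factors.

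The annotated span of HLA-B ends inside that of HLA-C on the same strand, with 35 shared exon bases. Of the 3051 exon bases of HLA-B, 542 lie opposite a pseudogene. How reads that match more than 1 of these polymorphic genes were assigned is not given in the sources used here, so the separate values of HLA-B, HLA-C and the other heavy chains are uncertain to that degree. Within a library, HLA-B stood at 0.278 ± 0.0316 of the HLA-C level in Scramble, 0.215 ± 0.0136 in Si-KDM4C#1 and 0.227 ± 0.00829 in Si-KDM4C#2 (SD, n = 3), the siRNA libraries all being below those of Scramble.

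HLA-E is at chr6:30489467-30494205 (plus strand, ENSG00000204592). Its level was 41.5, 40.3 and 41.0 FPKM in Scramble, 39.5, 44.7 and 45.2 in Si-KDM4C#1, and 34.7, 35.4 and 33.6 in Si-KDM4C#2. The Si-KDM4C#2 libraries were the lowest of all, and those of Si-KDM4C#1 lay on both sides of Scramble. HLA-E fell by 0.24 on the log2 scale with Si-KDM4C#2 (SE 0.0514, limma-trend adjusted p = 0.00303) and had a change of 0.070 with Si-KDM4C#1 (95% interval -0.045 to 0.19, adjusted p = 0.253). That change was -0.10 after quantile normalization, and passed the test at 0.15 after median-ratio size factors and at 0.13 without Si-KDM4C#1 replicate 1, so no direction is given. HLA-E differed between the siRNAs by -0.31 (limma-trend adjusted p = 0.000556).

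B2M, at chr15:44711487-44718877 (plus strand, ENSG00000166710), encodes the light chain that all class I heavy chains need. Libraries of Scramble held 141.0, 153.1 and 158.1 FPKM, those of Si-KDM4C#1 101.7, 101.9 and 105.1, and those of Si-KDM4C#2 80.1, 91.7 and 85.2. The 3 groups did not overlap and stepped down from Scramble to Si-KDM4C#1 to Si-KDM4C#2. B2M fell by 0.55 on the log2 scale (SE 0.0560, limma-trend adjusted p = 1.81e-05) and by 0.81 (SE 0.0560, adjusted p = 2.15e-06), or to 0.682 and 0.568 of the Scramble mean in FPKM. The step between the siRNAs was -0.26 (95% interval -0.39 to -0.14, limma-trend adjusted p = 0.00250). In bulk RNA a lower level per cell and fewer expressing cells cannot be told apart.

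Since a ratio within a library does not depend on how libraries are scaled, B2M was also set against the sum of HLA-B, HLA-C and HLA-E. The ratio was 0.614 ± 0.0563 in Scramble, 0.484 ± 0.0123 in Si-KDM4C#1 and 0.401 ± 0.0320 in Si-KDM4C#2 (SD, n = 3). Again the groups were separate in all libraries, so B2M and its 3 heavy chains did not change in proportion.

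**Figure D2:**
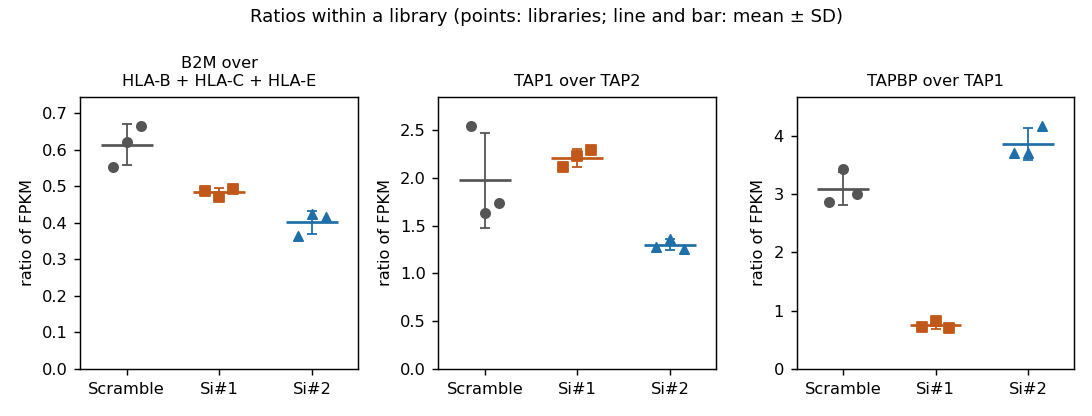
Ratios of FPKM within each library (vertical axes, from 0) for B2M over the sum of HLA-B, HLA-C and HLA-E, TAP1 over TAP2, and TAPBP over TAP1, with 1 point per library and mean ± SD. TAPBP was at 3.09 times the level of TAP1 in Scramble, 0.754 in Si-KDM4C#1 and 3.86 in Si-KDM4C#2.

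TAP1, at chr6:32845209-32853978 (minus strand, ENSG00000168394), forms the peptide transporter with TAP2. It was at 9.35, 7.53 and 7.69 FPKM in Scramble, 14.6, 14.4 and 15.4 in Si-KDM4C#1, and 7.75, 7.86 and 6.73 in Si-KDM4C#2. The Si-KDM4C#1 libraries stood apart above all others, and Scramble and Si-KDM4C#2 overlapped. TAP1 rose by 0.79 on the log2 scale with Si-KDM4C#1 (SE 0.0816, limma-trend adjusted p = 1.95e-05), 1.81-fold in FPKM. Its change with Si-KDM4C#2 was -0.12 (95% interval -0.30 to 0.066, adjusted p = 0.240), and this passed the test in voom (adjusted p = 0.0382) and after GC adjustment (0.0135). The siRNAs differed by -0.90 (limma-trend adjusted p = 9.13e-06).

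TAP2, at chr6:32821833-32838780 (minus strand, ENSG00000204267), was the member that rose with both siRNAs. Scramble libraries had 3.67, 4.60 and 4.42 FPKM, Si-KDM4C#1 libraries 6.92, 6.44 and 6.70, and Si-KDM4C#2 libraries 6.07, 5.76 and 5.37. No siRNA library reached down into the Scramble range. TAP2 rose by 0.56 on the log2 scale with Si-KDM4C#1 (SE 0.0745, limma-trend adjusted p = 0.000107) and by 0.37 with Si-KDM4C#2 (SE 0.0745, adjusted p = 0.00207). The difference between the siRNAs, -0.19 (limma-trend adjusted p = 0.0464), lost its call in 6 of the 9 fits that left out 1 library (Scramble 3, each Si-KDM4C#1 library, Si-KDM4C#2 2 or 3), with adjusted p up to 0.148, and without the filter on low values (0.102), with a pseudocount of 0.1 (0.0544) or after GC adjustment (0.0782). The ratio of TAP1 to TAP2 was 1.97 ± 0.498 in Scramble, 2.21 ± 0.0932 in Si-KDM4C#1 and 1.299 ± 0.0581 in Si-KDM4C#2 (SD, n = 3), Scramble overlapping Si-KDM4C#1 and lying above Si-KDM4C#2.

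TAP1 and TAP2 lie with the immunoproteasome genes PSMB8 and PSMB9 in the class II region. TAP1 shares 456 exon bases with an antisense RNA of PSMB8. TAP2 shares 2064 of its 6390 exon bases, or 32.3%, with an overlapping protein-coding gene on the same strand. That gene is not among the genes listed for the libraries, and its part in the TAP2 values was not tested. Whether strand was used in counting is not given in the sources used here. The annotated span of PSMB9, chr6:32844136-32859585, covers TAP1 on the opposite strand. PSMB9 was at 0.532 ± 0.243 FPKM in Scramble, 0.324 ± 0.0669 in Si-KDM4C#1 and 0.767 ± 0.0704 in Si-KDM4C#2 (SD, n = 3). It was under the filter on low values, and its ratio to TAP1 was lowest in the Si-KDM4C#1 libraries, at 0.0219 ± 0.00408 against 0.0675 ± 0.0361 in Scramble.

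TAPBP, at chr6:33299694-33314387 (minus strand, ENSG00000231925), encodes tapasin, the chaperone that bridges heavy chains to the transporter and selects stable peptides. Its level was 26.7, 25.7 and 23.1 FPKM in Scramble, 10.6, 11.9 and 10.9 in Si-KDM4C#1, and 28.7, 29.1 and 28.1 in Si-KDM4C#2. Si-KDM4C#1 libraries were far below the rest, and every Si-KDM4C#2 library was above every Scramble library by a small margin. TAPBP fell by 1.11 on the log2 scale with Si-KDM4C#1 (SE 0.0598, limma-trend adjusted p = 2.58e-07), to 0.442 of the Scramble mean in FPKM. With Si-KDM4C#2 it rose by 0.18 (adjusted p = 0.0257), a call lost after quantile normalization (0.054, adjusted p = 0.423), median-ratio size factors (0.0697) or GC adjustment (0.514), without the filter on low values (0.0576), and without Scramble 3 (0.0846), Si-KDM4C#2 1 (0.0629) or Si-KDM4C#2 2 (0.0714). The siRNAs differed by 1.29 (95% interval 1.15 to 1.42, limma-trend adjusted p = 1.43e-07), 2.57-fold in FPKM.

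ERAP1, at chr5:96760810-96808100 (minus strand, ENSG00000164307), trims peptides to the length that fits the groove. It stood at 2.22, 1.95 and 2.06 FPKM in Scramble, 0.906, 0.949 and 0.838 in Si-KDM4C#1, and 2.43, 2.86 and 2.97 in Si-KDM4C#2. The 3 groups did not overlap, with Si-KDM4C#1 lowest and Si-KDM4C#2 highest. ERAP1 fell by 0.70 on the log2 scale with Si-KDM4C#1 (SE 0.0827, limma-trend adjusted p = 4.96e-05) and rose by 0.29 with Si-KDM4C#2 (SE 0.0827, adjusted p = 0.0140). At this low level the added 1 FPKM shrinks the fold, and the Si-KDM4C#1 mean was 0.433 of Scramble in FPKM. The rise with Si-KDM4C#2 was not called without Si-KDM4C#2 replicate 3 (adjusted p = 0.0597), and between the siRNAs the difference was 0.98 (limma-trend adjusted p = 5.73e-06). CAST and an antisense gene overlap 299 and 252 of its 7945 exon bases on the opposite strand.

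NLRC5, at chr16:56989485-57083531 (plus strand, ENSG00000140853), acts through a complex of RFX, NF-Y and CREB or ATF proteins. Scramble libraries held 3.88, 2.98 and 2.92 FPKM, Si-KDM4C#1 libraries 2.25, 1.86 and 1.79, and Si-KDM4C#2 libraries 2.41, 2.47 and 2.41. All siRNA libraries were below all Scramble libraries, and Si-KDM4C#2 lay above Si-KDM4C#1 throughout. NLRC5 fell by 0.52 on the log2 scale with Si-KDM4C#1 (SE 0.0976, limma-trend adjusted p = 0.00110) and by 0.30 with Si-KDM4C#2 (SE 0.0976, adjusted p = 0.0225). The second call was lost without Scramble 1 (-0.20, adjusted p = 0.0686), Si-KDM4C#2 1 (0.0568) or Si-KDM4C#2 3 (0.0557), and without the filter on low values (0.0616). The siRNAs differed by 0.21 (95% interval -0.0082 to 0.43, limma-trend adjusted p = 0.0855), which passed without Scramble 1 (0.0362) or Si-KDM4C#1 1 (0.0439).

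**Figure D3:**
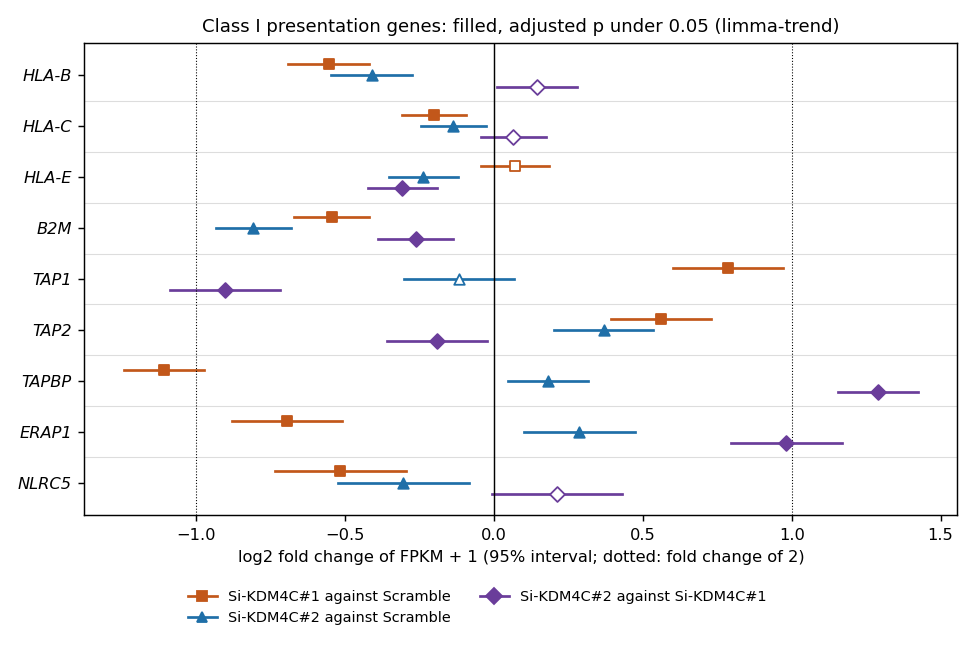
Log2 fold change of FPKM + 1 (horizontal axis) for each member with its 95% interval, for Si-KDM4C#1 and Si-KDM4C#2 against Scramble and for Si-KDM4C#2 against Si-KDM4C#1, filled where the limma-trend adjusted p was under 0.05. The TAPBP estimates of -1.11 with Si-KDM4C#1 and 1.29 between the siRNAs lie outside the dotted lines of a fold change of 2. The estimates of the other members lie within them. Some intervals cross a line, such as those of TAPBP with Si-KDM4C#1 (-1.24 to -0.97) and of ERAP1 between the siRNAs (0.79 to 1.17).

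The genes most like a member were ranked by Pearson's r of log2(FPKM + 1) over the 9 libraries, for 1 member per role. These libraries form 3 groups and share their scaling, so r mostly orders genes by their group means and no test was made. Closest to HLA-B were TOR1AIP1 (r = 0.991), FIG4 (0.982) and TMEM19 (0.981), and closest to B2M were CD9 (0.994), LSM3 (0.994) and MBD2 (0.993). For TAP1 they were SEPHS2 (0.996), RTN4R (0.994) and CRYBB2P1 (0.992), and for NLRC5 AP1G2 (0.989), PAX8 (0.983) and VARS2 (0.978). RTN4R, like TAP1, was highest with Si-KDM4C#1, at 9.90 FPKM against 3.77 in Scramble and 3.02 in Si-KDM4C#2.

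Class I-like chains outside the members were also measured. MR1, which presents vitamin metabolites and was named after its values were seen, fell by 0.54 with Si-KDM4C#1 and by 0.89 with Si-KDM4C#2 (limma-trend adjusted p = 0.000150 and 7.52e-06). HFE, the iron regulator that binds B2M, fell by 1.00 with Si-KDM4C#1 (adjusted p = 4.52e-07), was at 0.13 with Si-KDM4C#2 (adjusted p = 0.0911), and differed between the siRNAs by 1.13.

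In the list of immunoproteasome subunits and proteasome activators, 4 of 6 genes were tested, with 1 higher and 2 lower in each comparison with Scramble. The shares over all genes for this and the lists that follow were, as above, 31.7% up and 33.9% down after Si-KDM4C#1, and 34.4% up and 25.0% down after Si-KDM4C#2. The subunits that replace the standard proteasome's active sites were low. PSMB8 had 0.225 ± 0.0849 FPKM in Scramble, 0.156 ± 0.0889 in Si-KDM4C#1 and 0.325 ± 0.109 in Si-KDM4C#2 (SD, n = 3), and like PSMB9 it was under the filter. These PSMB8 values lie near a count of 3 fragments over 1 kb (0.166 to 0.206 FPKM), and the groups overlapped. In limma-trend over all listed genes PSMB8 did not pass against Scramble (adjusted p = 0.550 and 0.428) or between the siRNAs (0.156). PSMB10, the remaining subunit, fell by 0.71 with Si-KDM4C#1 (limma-trend adjusted p = 0.00318) and was at 0.032 with Si-KDM4C#2 (adjusted p = 0.876). PSME3, the nuclear activator, rose by 0.32 with Si-KDM4C#1 and fell by 0.88 with Si-KDM4C#2 (limma-trend adjusted p = 0.000387 and 8.04e-07). The 3 standard subunits PSMB5, PSMB6 and PSMB7 were all higher with Si-KDM4C#1 (median 0.42), and 1 was higher with Si-KDM4C#2.

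Among partners in loading and trimming, 5 of 6 were tested. Against Scramble, Si-KDM4C#1 had 1 gene up and 4 down and Si-KDM4C#2 had 1 up and 2 down, with medians of -0.41 and -0.077 on the log2 scale. All 8 DNA-binding partners of NLRC5 were tested, and 2 rose and 4 fell after Si-KDM4C#1 (31.7% and 33.9% of all genes), as 3 rose and 4 fell after Si-KDM4C#2 (34.4% and 25.0%). RFX5, a subunit of the X-box factor, fell by 0.53 and 0.18 (limma-trend adjusted p = 3.40e-05 and 0.0251). NFYC, a subunit of the CCAAT-binding factor, fell by 1.10 with Si-KDM4C#1 and by 0.22 with Si-KDM4C#2 (adjusted p = 9.44e-08 and 0.00402). ATF1, a member of the CREB and ATF family named after its values were seen, rose by 0.74 and 0.89 (limma-trend adjusted p = 7.68e-06 and 3.67e-06).

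All 11 interferon and NF-κB regulators were tested, and 1 rose and 7 fell after Si-KDM4C#1 (31.7% and 33.9% of all genes), while 2 rose and 5 fell after Si-KDM4C#2 (34.4% and 25.0%). IRF1, an interferon-induced activator of class I genes, was at -0.14 and -0.21 (limma-trend adjusted p = 0.315 and 0.163). Of the 10 class II genes 9 were listed and 1 passed the filter, HLA-DMA, a subunit of the class II peptide editor. HLA-DMA held 2.25, 3.23 and 3.39 FPKM in Scramble, 1.68, 1.78 and 1.60 in Si-KDM4C#1, and 1.60, 1.95 and 1.57 in Si-KDM4C#2, every siRNA library being below every Scramble library. It fell by 0.54 with each siRNA (limma-trend adjusted p = 0.00246 and 0.00328).

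The 5 stress ligands for natural killer cells, read by the receptor NKG2D, were all tested. With Si-KDM4C#1 1 rose and 4 did not pass the test, and with Si-KDM4C#2 4 fell and 1 did not pass, with medians of 0.21 and -0.69 on the log2 scale. MICB was at 35.8, 35.1 and 32.3 FPKM in Scramble, 42.7, 47.9 and 50.1 in Si-KDM4C#1, and 14.4, 12.6 and 13.5 in Si-KDM4C#2. It rose by 0.44 and fell by 1.29 (adjusted p = 0.000346 and 4.49e-07). ULBP2 was at 0.21 with Si-KDM4C#1 (adjusted p = 0.154) and fell by 1.11 with Si-KDM4C#2 (adjusted p = 4.29e-05).

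**Figure D4:**
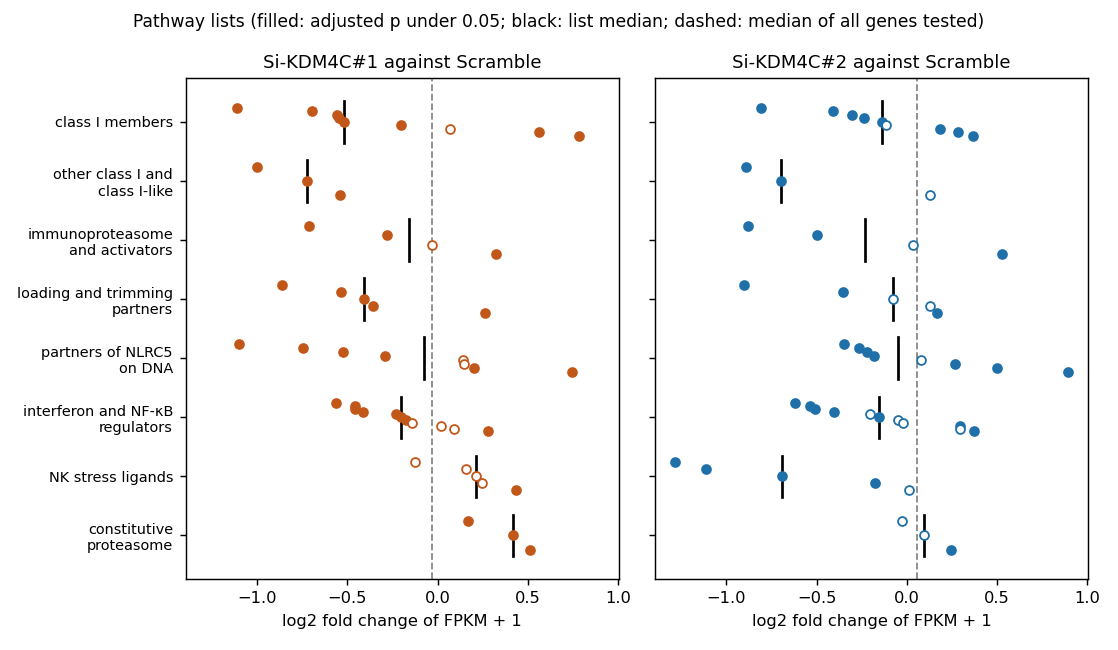
Log2 fold change of FPKM + 1 (horizontal axis) of each tested gene in the members and in 7 related lists, for each siRNA against Scramble, with the list median in black and the median of all genes tested as a dashed line. The stress ligands had a median of 0.21 with Si-KDM4C#1 and -0.69 with Si-KDM4C#2, and the members -0.52 and -0.14.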

How the data were processed

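Total RNA of 9 libraries labelled Huh7 was sequenced. The authors deposited FPKM values per gene, 1 file per library; the submitters' processing notes name FastQC 0.11.5, HISAT2 2.1.0, StringTie 1.3.3b, featureCounts, DESeq 1.28.0 and GRCh38. Strand setting and treatment of multi-mapping reads are not given in the sources used here. FPKM already divides out depth and exon length, so RNA content per cell is not measured. Values were log2-transformed after adding 1, genes averaging 1 FPKM or more in any group were kept, and limma-trend (limma 3.58.1, R 4.3.3) was fitted over all 9 libraries with 6 residual degrees of freedom. Calls used FDR 0.05, also with a fold change of 2. Genes were named by a rule: all members, KDM4C, list genes past FDR and fold change 2, PSMB8, PSMB9, PSMB10, IRF1, RFX5, and the 3 genes most like HLA-B, B2M, TAP1 and NLRC5. Some items of the lists are not reported here. Members and lists were chosen with earlier results of these data known. With exon lengths of GENCODE release 29, 97.66% of 32847 genes gave whole fragments within 0.05 in all libraries, and a count of 3 fragments over 1 kb is 0.166 to 0.206 FPKM. B2M came out whole only at 6089 exon bases, not the annotated 6079. Floors cover counting error only. Within groups, the 9 library pairs differed by more than counting error (chi-square over its degrees of freedom, 2.56 to 5.75). Fits were tested on simulated data. Alternatives, with limma voom on the recovered fragments, are given in the closing section. Promoters were aligned with Biopython 1.88.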

Additional observations from a re-analysis of the deposited data

Results flagged for a closer look

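For 6 members the effect against Scramble differed between the siRNAs by the limma-trend test of Si-KDM4C#2 against Si-KDM4C#1, with Benjamini-Hochberg adjustment over 14363 genes. Of all genes tested, 35.9% were called higher and 26.5% lower in this comparison, so 6 of 9 is near the share over all genes. The log2 difference was 1.29 for TAPBP (adjusted p = 1.43e-07) and 0.98 for ERAP1 (adjusted p = 5.73e-06), each lower with Si-KDM4C#1 and higher with Si-KDM4C#2 than in all Scramble libraries. It was -0.90 for TAP1 (adjusted p = 9.13e-06), whose rise was seen in 3 of 3 Si-KDM4C#1 libraries. For HLA-E it was -0.31 (adjusted p = 0.000556), for B2M -0.26 (adjusted p = 0.00250) and for TAP2 -0.19 (adjusted p = 0.0464). The rise of TAPBP with Si-KDM4C#2 lost its call after quantile normalization, median-ratio size factors or GC adjustment. That of ERAP1 lost its call without Si-KDM4C#2 replicate 3. The TAP2 difference lost its call in 6 of the 9 fits that left out a library. Groups of 3 libraries are too small for the check of single outlying libraries.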

How the results depend on the processing

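Smaller moves in the counts of members called are not listed here. They came with the calls lost or gained by single members above, such as TAPBP or ERAP1 higher with Si-KDM4C#2 and TAP2 between the siRNAs. Without a library, the counts that moved most in proportion were as follows. With Si-KDM4C#2 against Scramble the members called lower ranged from 3 to 5, being 3 without Scramble replicate 1 or Si-KDM4C#2 replicate 3. Between the siRNAs the members past a fold change of 2 ranged from 1 to 2, being 2 without Si-KDM4C#1 replicate 2 or Si-KDM4C#2 replicate 1. Past a fold change of 2 with Si-KDM4C#1 there were 2 members with a pseudocount of 0.1, in voom and in voom with the replicate block, against 1. With Si-KDM4C#2, at an FDR of 0.01, 1 member was higher and 3 were lower, and 3 were lower with no filter, where more genes were tested. Between the siRNAs 4 members were higher after quantile normalization or GC adjustment against 2, and 2 (median-ratio factors, pseudocount 0.1) or 3 (voom, with or without the block) were past a fold change of 2. The log2 change of HLA-E with Si-KDM4C#1 turned to -0.10 (quantile) and -0.057 (GC adjustment), and that of HLA-C between the siRNAs to -0.069 (median-ratio), -0.063 (voom) and -0.062 (voom with the block). The cause was not tested. Voom with the replicate block was chosen after seeing the data. Libraries with the same replicate number did not deviate together (mean correlation 0.016 over 9 pairs), and the replicate block on FPKM moved 1 call of a member, TAP2 between the siRNAs (-0.19, adjusted p = 0.0769). Of the members' log2 changes under the other settings, 262 values kept direction and side of the threshold, 16 lost a call, 11 gained one and 5 changed sign, and without a library 221 kept both, 17 lost a call and 5 gained one. The lowest fragments in a library were 107 for ERAP1, 336 for NLRC5 and 354 for TAP2, and their part in the smaller differences was not tested.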
